A study of Mus musculus with 2 samples.

Results

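Nuclear receptors are transcription factors that, for many members, are switched by small lipophilic ligands. The 46 genes described here are members of this superfamily, taken by symbol from the 55536 annotated gene entries of the deposited tables. No measured value served as a criterion, though the list was chosen with earlier results of these data known. Each symbol matched 1 protein-coding gene. Polyadenylated RNA came from bone marrow-derived macrophages of C57BL/6J mice, which are phagocytes grown from marrow in culture. The cells had received Lipid A, the membrane anchor of bacterial lipopolysaccharide, at 100 ng/mL for 12 h. They were then washed out for 12 h and exposed again at 100 ng/mL for 30 min. A further label calls the agent lipoprotein A, and the labels do not settle which name holds. This was the only group, with 2 libraries, and no untreated cells were analysed here, so no value below is a response to treatment. The labels list separate biosamples for the libraries and a shared donor record. Where they do not say that the cultures came from separate animals, the spread between the libraries may be technical.

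Most nuclear receptors share a zinc-finger domain that binds DNA and a ligand-binding domain that exchanges corepressors for coactivators. Many act as heterodimers with a retinoid X receptor (Rxr), and steroid receptors are held by chaperones until hormone binds. In macrophages the oxysterol receptors (Lxr) and the fatty acid receptors (Ppar) are known for control of lipid handling. The glucocorticoid receptor is known for restraint of inflammatory genes, and the Nr4a receptors for rapid induction by many stimuli.

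Gene counts totalled 41938419 for replicate 1 and 30780681 for replicate 2. All 8 macrophage markers listed were detected, with summed levels of 16477 and 18433 TPM (a level scaled to transcript length and to the library). All 5 hepatocyte markers had 0 counts, as did 4 of 5 adipocyte markers. The remaining adipocyte marker, Lpl, was detected at 226 and 183 TPM. Stromal markers were detected for 7 of 7, with summed levels of 573 and 650 TPM. Neutrophil markers were detected for 2 of 7, at 75.2 and 9.88 TPM summed, and no member of that list was at 0 in both libraries. The endothelial list had 2 of 5 members detected, at 11.8 and 24.8 TPM summed, with none at 0 in both. Kdr alone was higher in replicate 2 among its 3 counted genes, at 5.57 and 20.8 TPM, while Pecam1 and Cdh5 had log2 ratios of -0.48 and -0.54. The T cell list had 1 of 5, Cd4, which macrophages can also express, at 58.2 and 37.7 TPM. One rRNA gene, CT010467.1, took 1.37% and 4.25% of counts.

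Of the 46 nuclear receptor genes, 20 were detected, that is, they stood at 1 TPM or more in both libraries. That is 43.5% of them, against 48.7% of 22028 protein-coding genes, so the superfamily was detected at about the rate of other genes. Their medians were 11.8 and 11.7 TPM, against 17.5 and 16.4 TPM for all detected protein-coding genes. Of the 26 others, 15 had counts below that level and 11 had 0 counts in both libraries. Where no count was found, 3 counts were taken as the upper limit. In CPM (counts scaled to the library total) this is 0.0715 and 0.0975. Limits and intervals are for counting error only. They treat reads as independent molecules, which does not hold strictly, and rounded expected counts as exact, so the full uncertainty is wider. Levels were uneven, since the 6 highest genes held 76.0% of the summed TPM of the superfamily in replicate 1 and 68.9% in replicate 2. These 6 were Nr1h3, Nr1h2, Rxra, Esrra, Nr3c1 and Rxrb.

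**Figure D1:**
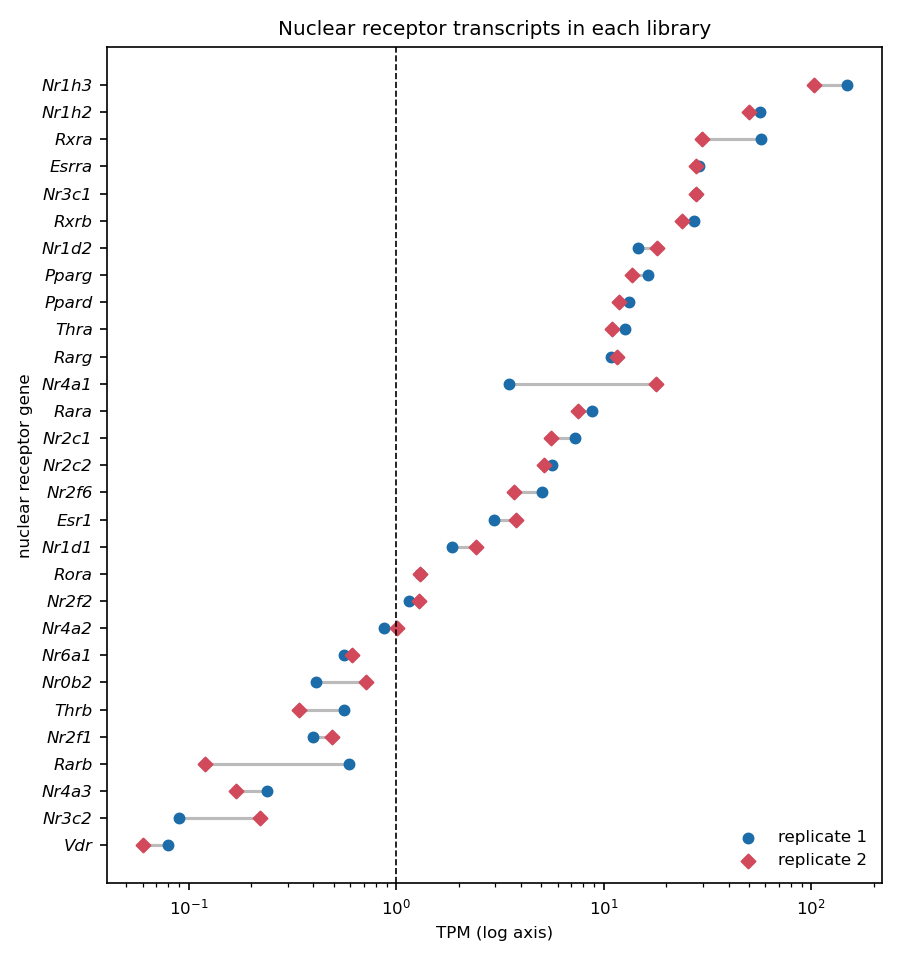
TPM of each nuclear receptor gene (log axis) in replicate 1 (circles) and replicate 2 (diamonds), joined by a line, for the 29 genes at 0.05 TPM or more in both libraries, with the detection level of 1 TPM dashed. Nr1h3 leads in both libraries, and Nr4a1 has the widest gap among detected genes, from 3.52 to 17.8 TPM.

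The oxysterol receptor Nr1h3, which encodes Lxr alpha (ENSMUSG00000002108.10, chromosome 2, 91184061 to 91202834, mm10), was the highest nuclear receptor. It stood at 149 TPM in replicate 1 and 104 TPM in replicate 2, a mean of 126 ± 31.7 TPM (SD, n = 2). It lay above 95.7% and 94.3% of protein-coding genes, and neither library had another member at that level. Its paralogue Nr1h2, which encodes Lxr beta, stood at 57.0 and 49.96 TPM (53.5 ± 5.01). Nr1h4, the bile acid receptor Fxr of liver and gut, had 0 counts in both libraries.

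Their partner Rxra, which encodes Rxr alpha (chromosome 2, 27676440 to 27762957), stood at 57.5 and 29.8 TPM (43.7 ± 19.6). Its range therefore enclosed the level of Nr1h2, and the order of these genes was not the same in both libraries. Rxrb, which encodes Rxr beta, was more even at 27.2 and 23.8 TPM (25.5 ± 2.41). Rxrg, the third retinoid X receptor, had 0 counts.

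Among the fatty acid receptors, Pparg and Ppard were at like levels and Ppara was almost without reads. Pparg, a regulator of lipid uptake in macrophages and of fat cell formation, stood at 16.3 and 13.7 TPM (14.98 ± 1.85). Ppard, a regulator of fatty acid oxidation in many tissues, stood at 13.2 and 11.9 TPM (12.5 ± 0.941), so the ranges of both genes were close but did not overlap. Ppara, which governs fatty acid oxidation in liver, had 1 count in each library. The xenobiotic receptors of liver were also near 0, with 0 counts for Nr1i2 (Pxr) in both libraries and 4 and 1 counts for Nr1i3 (Car).

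Of the retinoic acid receptors, Rarg stood at 10.8 and 11.6 TPM (11.2 ± 0.545) and Rara at 8.84 and 7.50 TPM (8.17 ± 0.948). Rarg was above Rara in both libraries. Rarb stood at 0.59 and 0.12 TPM on 12 and 7 counts. The thyroid hormone receptor gene Thra stood at 12.7 and 10.9 TPM (11.8 ± 1.29), and its paralogue Thrb at 0.56 and 0.34 TPM. The vitamin D receptor gene Vdr stood at 0.08 and 0.06 TPM on 9 and 5 counts, below the detection level.

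Among the steroid receptors the glucocorticoid receptor gene Nr3c1 was the highest. It stood at 27.9 TPM in each library, with an SD of 0.0141 TPM, one of the smallest spreads among detected members. With 2 libraries such an SD is itself imprecise. Esr1, which encodes estrogen receptor alpha, stood at 2.97 and 3.78 TPM (3.38 ± 0.573). The other steroid receptors listed lay below detection. The mineralocorticoid receptor gene Nr3c2 had 15 and 25 counts, Esr2 (estrogen receptor beta) 0 and 2, and Pgr (progesterone receptor) 2 and 1. The estrogen-related receptors bind no estrogen, and of these Esrra, a regulator of mitochondrial genes, stood at 28.8 and 27.9 TPM (28.3 ± 0.601). Its paralogues were near 0, with 0 counts for Esrrb and 1 and 5 counts for Esrrg. Esrra and Nr3c1 differed by less than 1 TPM in each library, so their order is not resolved.

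The Nr4a genes encode receptors whose activity is thought to be set mainly by how much is made rather than by a ligand. Nr4a1, which encodes Nur77 (ENSMUSG00000023034.7, chromosome 15, 101254269 to 101274795), had 212 counts in replicate 1 and 775 in replicate 2. Its level was 3.52 and 17.8 TPM (10.7 ± 10.1), so the SD nearly equalled the mean. Nr4a2, which encodes Nurr1, stood at 0.87 and 1.01 TPM (0.940 ± 0.0990), just outside the detection level, and Nr4a3, which encodes Nor1, at 0.24 and 0.17 TPM on 21 and 17 counts. The wide gap between the libraries was therefore seen for Nr4a1 and not for its paralogues.

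The start regions of these 3 genes are shown because the paralogues carry the same short motif and had unlike levels. RefSeq windows (GRCm38.p6, the same assembly as mm10) matched 42 of the 46 genes, with 63 start sites. The letters searched were TGACG on either strand, the core of the cAMP response element bound by Creb-type factors. Matches were counted in the 250 bases before each start, and overlapping matches on opposite strands were each counted. Each Nr4a window held 4 matches. The window of Nr4a1 is chr15:101266596-101266845 on the plus strand and that of Nr4a2 is chr2:57124004-57124253 on the minus strand. For Nr4a3, on the plus strand, 98 bases (chr4:48045055-48045152) with 3 of the matches are printed, up to the first annotated exon. Sequences run 5′ to 3′ and capitals mark the matches.
Nr4a1: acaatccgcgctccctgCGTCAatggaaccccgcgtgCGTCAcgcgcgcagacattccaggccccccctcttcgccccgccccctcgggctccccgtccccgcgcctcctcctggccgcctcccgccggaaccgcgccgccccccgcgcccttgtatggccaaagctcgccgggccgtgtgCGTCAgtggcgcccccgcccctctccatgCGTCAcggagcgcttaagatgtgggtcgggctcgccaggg
Nr4a2: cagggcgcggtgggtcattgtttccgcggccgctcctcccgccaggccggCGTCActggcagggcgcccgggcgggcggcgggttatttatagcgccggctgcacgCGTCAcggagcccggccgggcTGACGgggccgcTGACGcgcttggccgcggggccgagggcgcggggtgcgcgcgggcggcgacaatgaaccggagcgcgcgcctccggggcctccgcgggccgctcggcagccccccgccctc
Nr4a3: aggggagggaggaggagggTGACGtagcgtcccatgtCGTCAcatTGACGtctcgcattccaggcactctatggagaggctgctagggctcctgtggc

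At least 1 match occurred in 17.8% of all 32851 windows and in 13 of the 63 nuclear receptor windows (20.6%). At least 4 matches occurred in 45 windows overall (0.137%), and among nuclear receptor windows in those of Nr4a1, Nr4a2 and Nr4a3. The cut of 4 is the count these windows hold, and the motif was chosen with earlier results of these data known. The share is therefore a description and no test of enrichment. In Nr4a1 the matches began 233, 213, 69 and 40 bases before the start. In Nr4a2 they began 200, 144, 123 and 111 bases before it, and in Nr4a3 231, 213, 205 and 147 bases. Taken from the RefSeq starts, the motif count was equal across these paralogues, but the matches lay at unlike distances. For Nr4a3 both statements hold for the RefSeq start only. The GENCODE annotation, used for the levels, starts that gene farther upstream, at 48045153. Of the 4 matches of Nr4a3, the 3 printed lie before that upstream start. Matches in the 250 bases before it were not counted. The part of the motif in the levels of the Nr4a genes was not tested, and a match of letters does not show that a factor binds there. The letters AGGTCA, to which many nuclear receptors bind as a single element or as a pair, occurred in 11 of the 63 windows (17.5%), belonging to 10 genes, against 14.0% of all windows.

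The Rev-erb genes encode heme-binding repressors of the circadian clock, and the Ror genes encode activators that compete for the same DNA elements. Nr1d2, which encodes Rev-erb beta, stood at 14.7 and 18.2 TPM (16.4 ± 2.48). Nr1d1, which encodes Rev-erb alpha, stood at 1.85 and 2.42 TPM (2.14 ± 0.403), so the beta gene was the higher in both libraries. Rora stood at 1.31 TPM in each library, and Rorb had 1 and 0 counts.

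Among the orphan receptors of the Nr2 group, whose natural ligands are mostly unknown, 4 of 7 were detected. The testicular receptor gene Nr2c1 stood at 7.25 and 5.59 TPM (6.42 ± 1.17) and Nr2c2 at 5.63 and 5.18 TPM (5.41 ± 0.318). Nr2f6, a Coup-Tf type repressor, stood at 5.03 and 3.72 TPM (4.38 ± 0.926). Nr2f2, which encodes Coup-TfII, stood at 1.15 and 1.29 TPM (1.22 ± 0.0990) and its paralogue Nr2f1 at 0.40 and 0.49 TPM. Mesenchymal cells are known to express both Coup-Tf genes, and all 7 stromal markers were present in these cultures. The part of stromal cells in the Coup-Tf levels was not tested, and in bulk RNA fewer cells of a type and less RNA per cell cannot be told apart.

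The other Nr2 genes, Nr2e1 of neural stem cells and Nr2e3 of photoreceptors, had 0 counts. So did Hnf4a and Hnf4g, regulators of liver and gut epithelium, and Nr5a1 and Nr5a2, regulators of steroidogenic and of liver and gut cells. Nr6a1, the germ cell nuclear factor, stood at 0.56 and 0.61 TPM on 91 and 74 counts. Of the receptors without a DNA-binding domain, Nr0b1 had 0 counts and Nr0b2 (Shp) 10 and 13.

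The libraries differed by little for most of these genes. Each ratio is replicate 2 divided by replicate 1, from counts scaled by TMM factors (trimmed means of log ratios), for genes with 20 or more counts in each library, which 24 of the 46 genes met. No test was possible with 1 library on each side, so intervals are exact binomial intervals at 95% for counting error only, and a difference of at least 2-fold was counted instead. By this rule 1 of 24 genes, Nr4a1, was higher in replicate 2 (4.17%), against 1.96% of all 12471 genes counted. None of the 24 was at least 2-fold lower, against 0.521% of all genes. The median log2 ratio was -0.02 over the 24 genes and -0.02 over all genes. A log2 ratio within 0.5 of 0 was found for 21 of 24 genes (87.5%) and for 86.9% of all genes. The counting interval excluded 0 for 13 of 24 (54.2%) and for 54.5% of all genes, so the superfamily varied between the libraries like other genes.

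**Figure D2:**
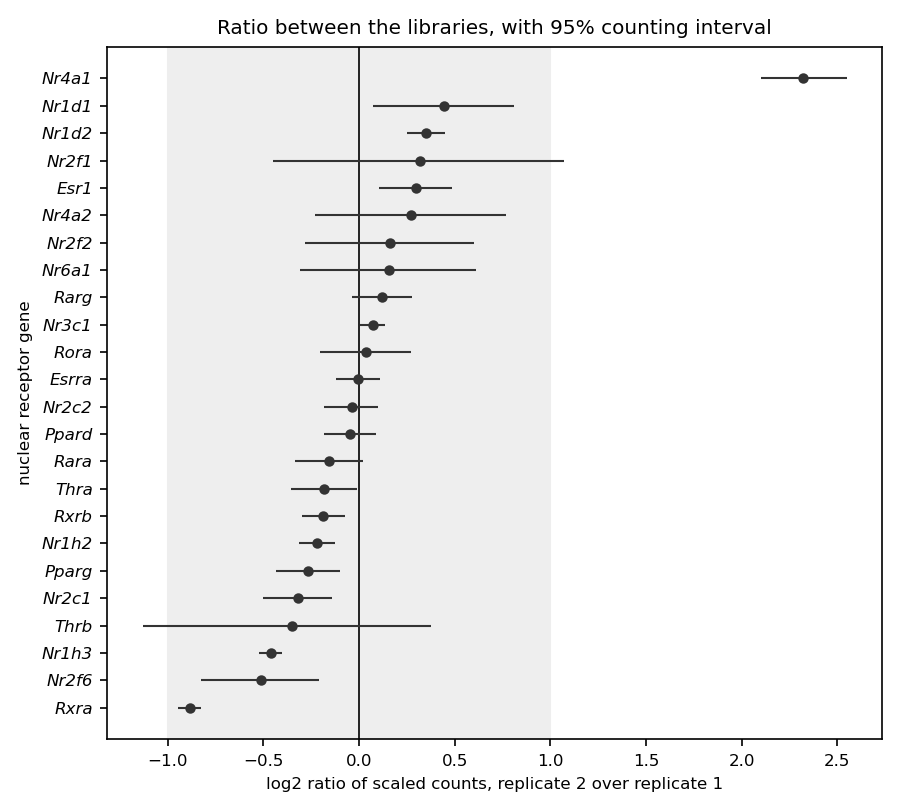
Log2 ratio of TMM-scaled counts, replicate 2 over replicate 1, for the 24 nuclear receptor genes with 20 or more counts in each library. Bars are exact 95% intervals for counting error, grey marks differences under 2-fold, and Nr4a1 at 2.32 lies outside it while Rxra is lowest at -0.89.

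For Nr4a1 the log2 ratio was 2.32 (interval 2.10 to 2.55), a 4.998-fold difference, and the gene ranked 16 from the top among 12471 genes. In the FASTQ-derived table, the other quantification deposited for each library, its log2 ratio was 2.39. The interval of Nr4a2 was -0.23 to 0.77 around 0.27, which does not reach that of Nr4a1. At 21 and 17 counts Nr4a3 was below the count minimum, and its interval was -0.86 to 1.14. Other values moved between the same libraries, including the neutrophil marker S100a9 with 277 and 26 counts. Genes of the lists described below moved in both directions. Dusp1 and Nfkbia had log2 ratios of 1.45 and 1.29, and Cd36 and Apoe of -1.76 and -1.10. Of the 8 macrophage markers 2 were higher in replicate 2, Cd14 at a log2 ratio of 1.07 and Lyz2 at 0.50, and 6 were lower, with a list median of -0.25. The part of these differences, of the rRNA share and of depth in the difference of Nr4a1 was not tested.

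Rxra was the lowest of the 24, at 7378 and 2916 counts. Its log2 ratio was -0.89 (-0.95 to -0.82), and it ranked 107 from the bottom of all genes. Its heterodimer partner Nr1h3 followed the same direction at -0.46 (-0.52 to -0.40), and Nr1h2 stood at -0.22 (-0.31 to -0.13). Nr2f6 stood at -0.51 (-0.82 to -0.21) on 264 and 135 counts. Pparg stood at -0.27 (-0.43 to -0.10), and Ppard at -0.05 with an interval, -0.18 to 0.09, that included 0. In the other direction, Nr1d1 stood at 0.44 (0.08 to 0.81) and Nr1d2 at 0.35 (0.25 to 0.45). Esr1 followed at 0.30 (0.10 to 0.49), and Nr3c1 was almost even at 0.07 (0.01 to 0.14). None of these genes reached 2-fold.

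Genes that work with or under these receptors were listed by function. Over all 12471 genes counted, 1.96% were at least 2-fold higher in replicate 2 and 0.521% at least 2-fold lower. The lists are small, were chosen with earlier results of these data known, and were not tested against these shares. The lists share the members Mertk, held by the Lxr and glucocorticoid lists, and Per1, held by the glucocorticoid and clock lists. All 8 corepressor genes were detected, among them Ncor1 at 81.3 and 70.9 TPM and Gps2, a subunit of the same complex, at 43.3 and 34.2 TPM. Nrip1 was lowest at 5.10 and 5.61 TPM. Of 14 coactivators 13 were detected, with Ncoa4, also a receptor for ferritin breakdown, at 321 and 333 TPM, Ncoa3 at 56.3 and 49.3 TPM and the acetyltransferase Ep300 at 42.4 and 34.2 TPM. Ppargc1a, the cold-inducible coactivator of Pparg, was lowest at 0.11 and 0.23 TPM. No gene of either list differed 2-fold between the libraries, and their median log2 ratios were -0.06 and -0.07. The medians of the lists were 34.7 and 32.3 TPM for corepressors and 18.2 and 18.4 TPM for coactivators.

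Lxr target genes were all detected, 13 of 13, with list medians of 104 and 73.0 TPM. Apoe, an apolipoprotein of cholesterol efflux, stood at 8958 and 4075 TPM, and its log2 ratio was -1.10 (-1.11 to -1.08). It was the 1 gene of 13 that was at least 2-fold lower, and none was higher. Pltp, a phospholipid transfer protein, stood at 716 and 352 TPM, and its log2 ratio was -0.96 (-0.997 to -0.934), just inside the limit. Scd2, a fatty acid desaturase, stood at 162 and 188 TPM, a ratio of 0.27 (0.25 to 0.30). Its paralogue Scd1 was lowest in the list at 4.31 and 6.99 TPM, and its ratio of 0.97 (0.80 to 1.15) lay as far from 0 as that of Pltp, in the other direction. The median ratio of the list was -0.045, with 6 genes above 0 and 7 below.

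Ppar target genes were detected for 8 of 12, with list medians of 20.8 and 17.8 TPM. Plin2, a coat protein of lipid droplets, stood at 1013 and 536 TPM, and Ucp2, a mitochondrial carrier, at 713 and 511 TPM. Cd36, a scavenger receptor for oxidised lipids, stood at 145 and 41.1 TPM, and its log2 ratio was -1.76 (-1.82 to -1.69). It was the 1 gene of 9 counted that was at least 2-fold lower, and none was higher. The list median was -0.41, with 3 genes above 0 and 6 below.

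Glucocorticoid receptor target genes were detected for 9 of 12. Nfkbia (IkB alpha, which holds NF-kB in the cytoplasm) stood at 237 and 566 TPM, and its log2 ratio was 1.29 (1.25 to 1.33). Dusp1, a phosphatase of MAP kinases, stood at 113 and 294 TPM, with a ratio of 1.45 (1.40 to 1.498). Both genes are also known as early targets of Toll-like receptor signalling. They were the 2 genes of 10 counted that were at least 2-fold higher, against 1.96% of all 12471 genes counted. Anxa1, an anti-inflammatory annexin, stood at 212 and 223 TPM, and Zbtb16 was lowest at 0.01 and 0.02 TPM. The median log2 ratio was 0.21, with 9 above 0 and 1 below, against a median of -0.02 over all genes.

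Circadian clock genes were detected for 13 of 15, with medians of 4.14 and 5.31 TPM. The clock output factors Dbp and Tef stood at 44.7 and 36.1 TPM and at 28.2 and 23.1 TPM. Nfil3, a repressor that opposes them, stood at 12.0 and 30.1 TPM, with a ratio of 1.37 (1.22 to 1.51). Bhlhe40, a repressor of clock genes, stood at 3.08 and 6.27 TPM, with a ratio of 1.08 (0.84 to 1.32). These 2 of 13 counted genes were at least 2-fold higher, none was lower, and the list median was 0.11. The interval of Bhlhe40 reaches below the 2-fold limit. Hlf was lowest at 0.09 TPM in each library.

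Further lists held genes for making and handling ligands. In the retinoid list 6 of 14 were detected, led by the lipid and retinoid carrier Fabp5 at 4199 and 3802 TPM, the retinal reductase Dhrs3 at 314 and 269 TPM and the transglutaminase Tgm2 at 52.1 and 58.8 TPM. Cyp26a1, which degrades retinoic acid, and Stra6, which imports retinol, had 0 counts. Dhrs9, a retinol dehydrogenase, stood at 0.63 and 1.22 TPM (71 and 104 counts). Its log2 ratio was 1.001 (0.56 to 1.46), and it was the 1 gene of 8 counted at 2-fold. Its interval reaches below the 2-fold limit.

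In the list for vitamin D and thyroid hormone metabolism 3 of 8 were detected. They were the amino acid and thyroid hormone transporter Slc16a10 at 27.7 and 21.5 TPM, the deiodinase Dio2 at 1.00 and 2.29 TPM and the vitamin D hydroxylase Cyp2r1 at 1.09 and 1.00 TPM. Dio2 had a log2 ratio of 1.25 (0.96 to 1.55) and was the 1 gene of 4 counted that was 2-fold higher. The interval of Dio2 also reaches below the 2-fold limit. Cyp24a1 and Dio1 had 0 counts. In the list for steroid and oxysterol enzymes 4 of 11 were detected, with Srd5a3 at 65.3 and 54.5 TPM, Hsd17b4 at 48.0 and 33.8 TPM and the sterol hydroxylase Cyp27a1 at 12.7 TPM in each library. Ch25h, which makes the Lxr ligand 25-hydroxycholesterol, stood at 0.89 and 3.02 TPM (28 and 71 counts), and its log2 ratio was 1.78 (1.15 to 2.48). It was the 1 gene of 5 counted that was 2-fold higher, and Cyp19a1, the aromatase, had 0 counts. Chaperones of steroid receptors were all detected, 7 of 7, led by Hspa8 at 1789 and 1838 TPM, Hsp90ab1 at 823 and 691 TPM and Hsp90aa1 at 142 and 98.5 TPM. Fkbp4 was lowest at 35.4 and 27.0 TPM, and the list median ratio was -0.27 with no gene past 2-fold.

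**Figure D3:**
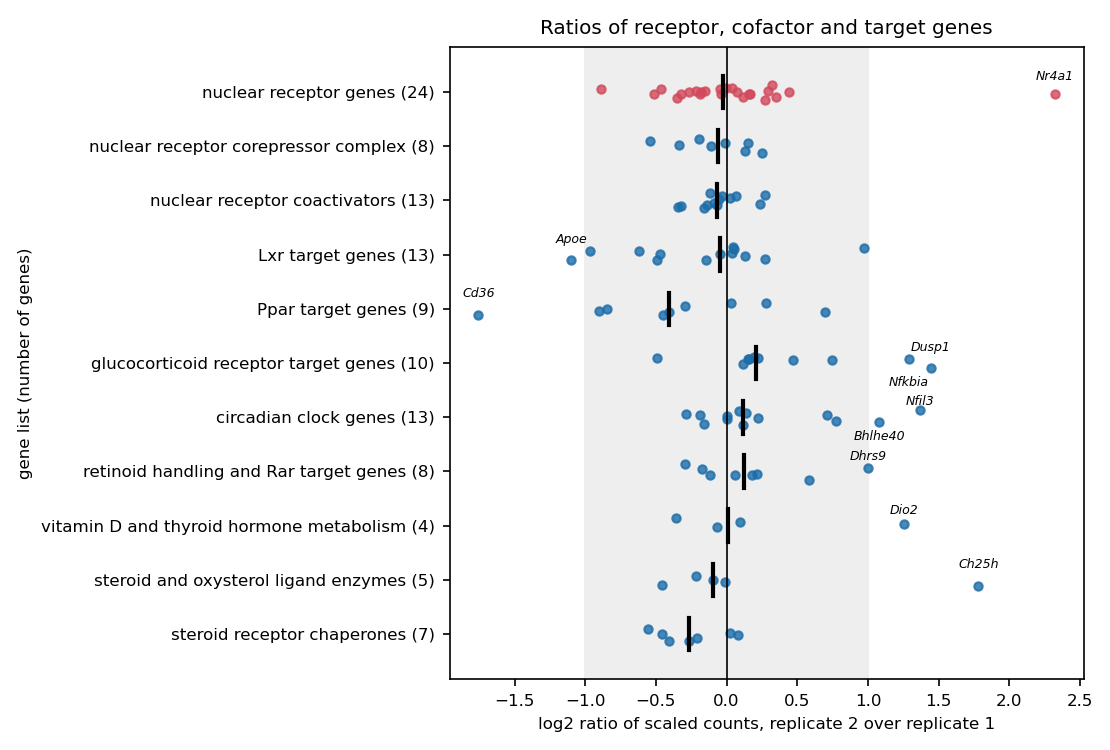
Log2 ratio, replicate 2 over replicate 1, of the counted genes in each list (number in parentheses), with list medians as black bars and differences under 2-fold in grey. Genes at 2-fold or more are named, and Nr4a1 at 2.32 is farthest to the right while Cd36 at -1.76 is farthest to the left.

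Transcript annotation divided several receptor genes among start sites and ends. Of the 20 detected genes, 19 in the alignment-derived table had the same leading transcript in both libraries, and 18 had the same leader in both libraries of both deposited tables. These shares were not computed over all genes, so they are not traits particular to the superfamily. For Nr1h3, Nr1h3-201 took 67.6% and 67.9% of the gene's TPM, and 67.4% and 67.7% in the FASTQ-derived table. For Nr1h2 the leader Nr1h2-201 took 39.3% and 36.7%, followed by Nr1h2-203 at 25.8% and 29.3%, so no transcript held most of that gene. Rxra was almost all Rxra-201, at 98.7% and 99.0%. Rxrb was shared by Rxrb-202 at 54.5% and 57.2% and Rxrb-201 at 40.5% and 33.2%, which start 589 bases apart.

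The exceptions were Pparg and Rara. Pparg-202 and Pparg-204, whose starts lie 1341 bases apart, took 51.0% and 49.0% in replicate 1 and 34.6% and 43.0% in replicate 2. Pparg-201 starts 61115 bases downstream of Pparg-202, and adipocytes are known to use that downstream start. It took 0% and 21.5% in the alignment-derived table but 1.62% and 0% in the FASTQ-derived table, so the tables do not give the same picture of it. For Rara, Rara-207 led at 60.5% and 61.2% in the alignment-derived table, whereas Rara-204 led at 69.9% and 69.3% in the FASTQ-derived table. Their starts lie 2013 bases apart, and the libraries were alike within each table.

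**Figure D4:**
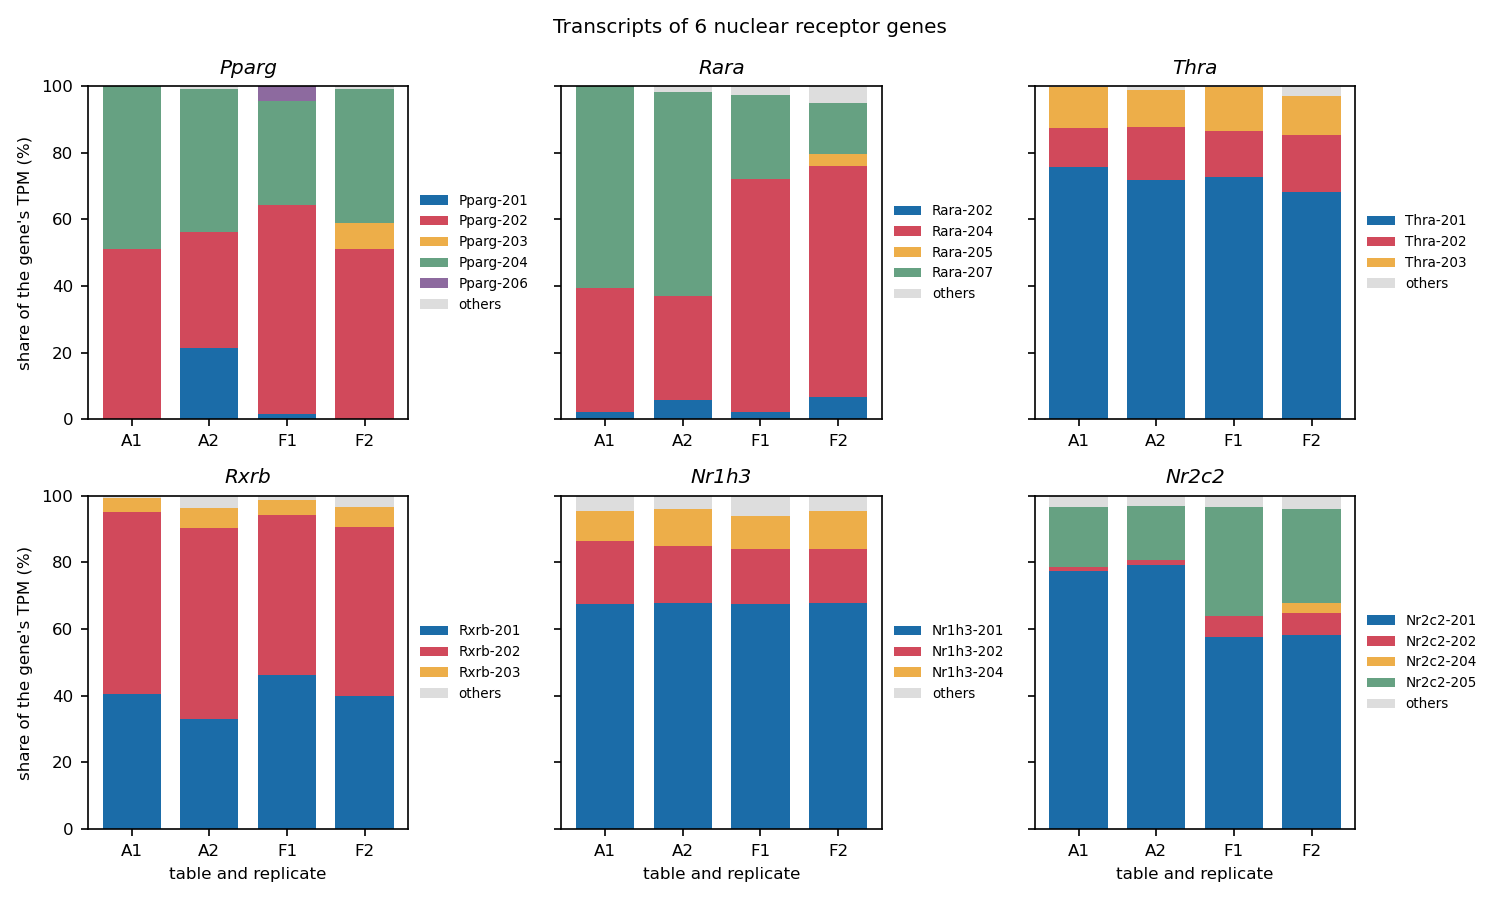
Share of each gene's TPM (percent) taken by its annotated transcripts, for 6 nuclear receptor genes, in the alignment-derived table (A) and the FASTQ-derived table (F) of replicates 1 and 2. Nr1h3 has the same division in all 4 columns, whereas Rara changes its leading transcript between tables and Pparg-201 appears mainly in column A2.

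Some receptor transcripts were annotated as noncoding or as targets of decay. Nr2c2-205, annotated for nonsense-mediated decay, took 18.1% and 16.2% of Nr2c2 and 32.6% and 28.1% in the FASTQ-derived table. Retained-intron and processed transcripts together exceeded 10% in at least 1 library for 4 of the 20 detected genes in the alignment-derived table. Among these were Esr1 at 5.39% and 15.1% and Esrra at 11.9% and 11.3%. The share was not computed over all genes, so it cannot be read as high or low. Esr1, Esrra and Nr2f2 exceeded 10% in both tables, but Nr2f6 did so only in the alignment-derived table. In the FASTQ-derived table alone, Ppard exceeded it in replicate 1 (21.3%), and Nr1d2 (12.9%) and Rarg (14.6%) in replicate 2. The retained-intron transcript Nr4a1-204 took 3.69% and 9.81% of Nr4a1 in the alignment-derived table, that is 0.13 and 1.75 TPM. The coding transcript Nr4a1-201 kept the lead with 93.5% and 89.5% in the alignment-derived table. In the FASTQ-derived table Nr4a1-201 took 93.9% and 71.3%, while Nr4a1-203, also annotated as coding, took 0% and 18.8%. The gap between the libraries lay mostly in coding transcripts, though the tables divide it differently among them.

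The 2 quantifications gave close levels for the superfamily. No detected gene differed 2-fold between the tables after centring, against 0.767% of 10820 protein-coding genes, and the farthest was Nr2f2 at a log2 difference of 0.43. Reads of paralogues could be told apart for most genes, since for 17 of 20 leading transcripts less than 1% of the 31-base words occurred in another gene on the same strand. The exceptions above 10% were Nr2c2 at 14.2% and Nr1d2 at 11.1%, shared mainly with the processed pseudogenes Gm42933 and AC170187.1, which both had 0 counts.

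The sources used here do not state a strand setting for the counting, which matters for genes that overlap an opposite gene. For Nr2c2, 45.99% of the words lay opposite Mrps25, at 13.1 and 11.6 TPM, and for Nr2f6, 36.4% lay opposite Ocel1, at 15.5 and 16.01 TPM. The levels of Nr2c2 and Nr2f6 are therefore uncertain. Thra and Nr1d1 overlap tail to tail over 263 exon bases, which is 8.88% of the words of Nr1d1-201 and 9.87% of those of Thra-201. Thra was the more abundant at 12.7 and 10.9 TPM, so the 1.85 and 2.42 TPM of Nr1d1 are uncertain as well. The undetected Nr1i3 and Rarb also overlap expressed opposite genes, Tomm40l at 41.4 and 32.2 TPM over 74.8% of exon bases and Top2b at 11.0 and 13.8 TPM over 34.1%.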

How the data were processed

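Per the deposited notes, the authors used mm10 and GENCODE M21 and deposited 3 tables for each library. Gene and transcript tables with expected counts and TPM were derived from transcriptome alignments, and a transcript table with estimated counts and TPM was derived from 4 FASTQ files (per the file headers and notes). The aligner and the quantifier are unnamed in these sources. The gene table was the main source. Its expected counts were rounded.

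Total counts were scaled with TMM factors (edgeR 4.0.16, R 4.3.3). DESeq2 1.42.0 size factors and total counts were alternatives. Ratios had 0.5 added to counts, and intervals were Clopper-Pearson. The 2-fold rule was checked on simulated data with larger changes in genes with many counts. That check does not cover calls close to 2-fold or on few counts. Joins and intervals used scipy 1.17.1 with pandas 2.3.3 and numpy 2.4.6 under Python 3.11.15, and plots matplotlib 3.10.9. Every member is accounted for. Of each other list the 3 highest genes, the lowest and those past 2-fold are named, except 2 genes that are not reported here. The members, lists and motifs were chosen with earlier results of these data known. Promoter windows are from RefSeq (GRCm38.p6), and 31-base words from the GENCODE transcripts.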

Additional observations from a re-analysis of the deposited data

How the results depend on the processing

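The number of detected nuclear receptor genes was 20, and 22 or 14 at thresholds of 0.5 or 5 TPM, 20 in the FASTQ-derived table, and between 20 and 21 when either replicate was left out. With DESeq2 size factors, total counts, FASTQ-derived estimated counts or a minimum of 100 counts, 1 gene remained at least 2-fold higher in replicate 2 and 0 lower. With no count minimum there were 4 higher and 2 lower among 35 genes, where the added genes had under 20 counts in a library. The median log2 ratio ran from -0.05 to 0.00 over these alternatives. All 24 single ratios stayed within their counting intervals under the other scalings and in the FASTQ-derived counts. Mean TPM in the FASTQ-derived table moved by more than the SD for 9 of 20 genes, against a general shift of -0.18 on the log2 scale. One leading transcript was shared between libraries by 20 of 20 genes in the FASTQ-derived table, and no gene differed 1.5-fold between tables. Ratios cannot be formed without either replicate. No paired analysis was possible because there was 1 group. Genes with few counts, such as Vdr and Nr4a3, are limited by depth.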
